A study of Homo sapiens with 6 samples.

Results

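The heat shock chaperones described here are 10 genes, identified in the files by symbol: HSPA1A, HSPA1B, HSPA8, HSP90AA1, HSP90AB1, HSPH1, DNAJB1, HSPB1, HSPD1 and HSPE1. All 10 were found among the 23368 gene symbols of the count tables. The data are RNA-seq of total RNA from NB4 cells, an established human cell line of acute promyelocytic leukemia. Not treated (n.t.) cells were compared with cells given the synthetic anticancer compound maltonis at 10 µM for 24 h, with 3 libraries in each group described by the study as biological replicates. Every library came from the same line, and no other cell line, dose or time was available for comparison here. The libraries held between 18492154 and 38205483 counts. Replicate 1 of each group carried the code A in its library name and replicates 2 and 3 the code B, and the meaning of this code is not stated.

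Heat shock chaperones bind unfolded or partly folded proteins and help them to fold, to be held soluble or to be handed on for degradation. In the cytosol, J-domain proteins deliver clients to HSP70, HSP110 exchanges its nucleotide, and HSP90 takes over a subset of clients such as kinases and steroid receptors. HSP60 and HSP10 form the folding chamber of the mitochondrial matrix. The heat shock factor HSF1 activates the inducible members through heat shock elements, which are inverted repeats of the unit GAA, while other members are made at high level in cells that are not stressed.

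These units are what the promoters of most of the 10 genes share in sequence. They were found for some members that rose, some that fell and those that were not called. Whether they bear on the direction of change was not tested. RefSeq promoter windows of 300 bases (GRCh38.p14) were searched on both strands for GAANNTTC or TTCNNGAA, and for longer runs of the same alternating units, each spaced by 2 bases. At least 2 such units were found for 8 members and none within the windows of HSPH1 and HSPE1. Runs of at least 3 units were found for 4 members. Counted in the same way, per gene, 16.177% of 27305 genes held at least 2 units and 0.60795% at least 3. The capitals mark the units, read 5′ to 3′ on the strand of the gene.
HSPA1A, chr6:31815426-31815455, plus strand: cgaaaaccctgGAAtaTTCccgacctggca
HSPA1B, chr6:31827608-31827665, plus strand: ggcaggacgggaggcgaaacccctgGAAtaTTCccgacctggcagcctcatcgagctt
DNAJB1, chr19:14518442-14518499, minus strand: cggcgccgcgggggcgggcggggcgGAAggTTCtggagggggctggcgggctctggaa
HSPA8, chr11:123062171-123062199, minus strand: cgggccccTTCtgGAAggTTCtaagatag
HSP90AA1, chr14:102087112-102087140, minus strand: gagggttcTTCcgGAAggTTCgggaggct
HSP90AB1, chr6:44247753-44247815, plus strand: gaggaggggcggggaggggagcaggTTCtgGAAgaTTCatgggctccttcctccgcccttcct
HSPB1, chr7:76302466-76302523, plus strand: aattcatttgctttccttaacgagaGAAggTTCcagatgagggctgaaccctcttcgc
HSPD1, chr2:197500062-197500090, minus strand: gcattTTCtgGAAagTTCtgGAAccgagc

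The run shown began 106 bases before the RefSeq start for HSPA1A and 105 before it for HSPA1B. It began 77 bases before a start of DNAJB1, 55 before that of HSPA8, 88 before a start of HSP90AA1, 165 before a start of HSP90AB1, 182 before that of HSPB1 and 245 before a start of HSPD1. In GENCODE version 29, the stretches of HSPA1B and HSPB1 lay outside every annotated transcript. Those of HSP90AB1 and DNAJB1 lay in introns of longer transcripts of the same gene, and that of DNAJB1 also within an intron of TECR. Before shortening, the stretches of HSPA1A, HSPA8, HSP90AA1 and HSPD1 overlapped an exon of at least 1 transcript, and they are shortened for that reason. The longer stretch of HSPD1 overlapped exons of both HSPD1 and HSPE1. The stretch of HSPD1 ends at 197500090, just outside the HSPE1 window, which begins at 197500129. The other HSPD1 window held no run. Which gene is credited with this run thus rests on the window edges and the start used. The longest run held 4 units for HSPD1, 3 for HSPA8, HSP90AA1 and HSP90AB1, and 2 for the other members with a match. Further runs, not shown, began 230 bases before the start of HSPA8 (3 units) and 112 before that of HSP90AB1 (3 units). Others began 68 bases before the start of HSP90AA1 (2 units) and 47 before that of DNAJB1 (2 units). DNAJB1 also held a run just past another of its starts. A match of letters does not show that a factor bound there.

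After maltonis, 4 of the 10 members rose (HSPA1A, HSPA1B, DNAJB1 and HSPH1), 3 fell (HSP90AB1, HSPD1 and HSPE1), and HSPA8, HSP90AA1 and HSPB1 were not called at a false discovery rate (FDR) under 0.01. Of all 13209 genes tested, 31.9% rose and 32.1% fell by the same rule, and 64.0% were called in either direction, so the 7 called members stand against a background in which most genes were called. In 8 members the groups did not overlap, as in 76.6% of all genes tested. The study also asked for a change of about 2.5-fold or more. None of the 10 members reached it, while 9.96% of all genes rose and 10.4% fell past it at this FDR. The median log2 fold change was -0.16 over the 10 members and 0.01 over all genes.

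**Figure D1:**
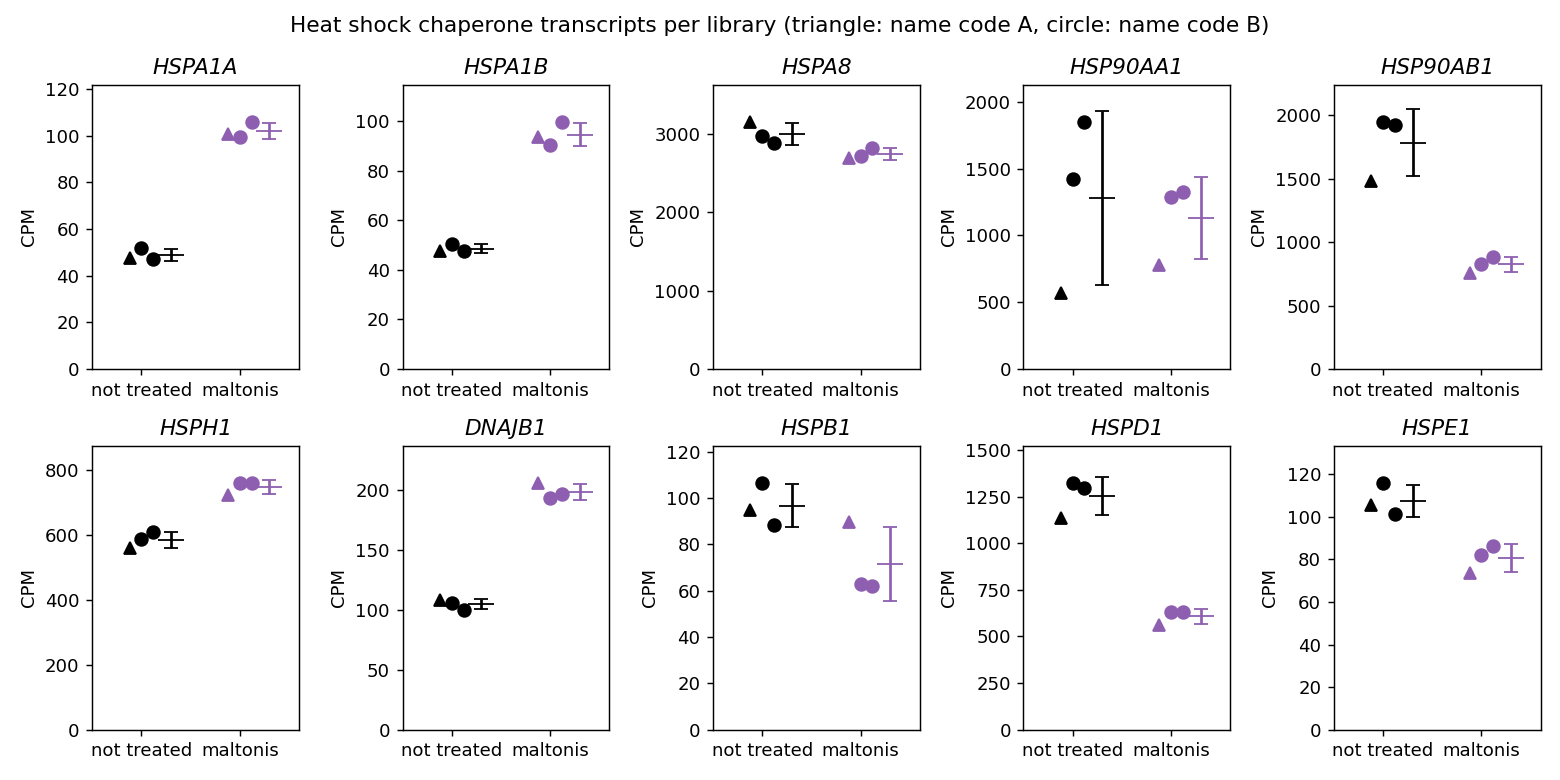
TMM-scaled read counts relative to library size (CPM) of each member in every library, n.t. in black and maltonis in purple, with triangles for name code A and circles for name code B; the bar beside the points is the mean ± SD of 3 libraries. HSPA1A, HSPA1B, DNAJB1 and HSPH1 sit higher in all 3 maltonis libraries, HSP90AB1, HSPD1 and HSPE1 sit lower, and HSP90AA1 and HSPB1 overlap between groups.

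HSPA1A and HSPA1B encode the stress-inducible cytosolic HSP70. HSPA1A was measured at 47.7, 51.9 and 47.2 CPM in n.t. cells and at 100.6, 99.3 and 106 CPM after maltonis. All treated libraries were higher, and the groups lay far apart relative to their spread. The means were 49.0 ± 2.60 and 102 ± 3.52 CPM (SD, n = 3). On the log2 scale the rise was 1.06 (SE 0.0646), with an FDR of 1.21e-06 in the quasi-likelihood test of edgeR after Benjamini-Hochberg adjustment. HSPA1B was measured at 47.8, 50.5 and 47.4 CPM in n.t. cells and at 93.7, 90.4 and 99.7 CPM after maltonis. It too was higher in every treated library, with a log2 fold change of 0.96 (SE 0.0643, FDR 2.03e-06). The genes lie 9795 bases apart on chromosome 6. Their longest transcripts share an identical run of 1715 of 2403 aligned bases, so reads could be split between them or dropped in counting. With both genes summed, the log2 fold change was 1.01 (SE 0.0610, FDR 1.12e-06). A sum does not restore dropped reads.

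DNAJB1 is the J-domain partner that stimulates the ATPase of HSP70. It was measured at 108.1, 105.9 and 100.2 CPM in n.t. cells and at 206.0, 193.3 and 196.3 CPM after maltonis. The groups did not overlap, and the 3 treated libraries lay close together. Its log2 fold change was 0.92 (SE 0.0579, FDR 1.40e-06).

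HSPH1 encodes HSP110, a nucleotide exchange factor of HSP70. It was measured at 560.7, 588.5 and 609.5 CPM in n.t. cells and at 724.3, 760.5 and 761.7 CPM after maltonis. The treated libraries were all higher, but by less than for the other 3 risen members, with a log2 fold change of 0.35 (SE 0.0575, FDR 5.04e-04).

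HSPA8 encodes HSC70, the constitutive cytosolic HSP70, and had the highest expression of the 10 per length. It was measured at 3151, 2968 and 2879 CPM in n.t. cells and at 2686, 2713 and 2824 CPM after maltonis. The treated libraries were slightly lower without overlap, but the difference did not pass the test, with a log2 fold change of -0.13 (SE 0.0602, 95% interval -0.27 to 0.0079, FDR 0.0797). Its small difference moved with the scaling, to -0.04 with upper quartile and -0.01 with total counts, where the median of all genes stood at 0.10 and 0.13.

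HSP90AB1 encodes HSP90β, the constitutive cytosolic HSP90. It was measured at 1478, 1947 and 1922 CPM in n.t. cells and at 757.8, 829.6 and 882.8 CPM after maltonis. Every treated library was below every n.t. library, and replicate 1 was the lowest of its group in both. The means were 1783 ± 264 and 823 ± 62.7 CPM (SD, n = 3). The log2 fold change was -1.11 (SE 0.112, FDR 2.44e-05). The processed pseudogene HSP90AB3P, whose transcript is 97.239% identical to that of HSP90AB1, was listed at 193.2 to 201.4 CPM in n.t. cells and at 87.8 to 99.7 CPM after maltonis. Its log2 fold change was -1.06 (SE 0.0635), and reads of the gene and its copy cannot be told apart with certainty.

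HSP90AA1 encodes HSP90α, the inducible cytosolic HSP90, and varied most within a group. It was measured at 570.5, 1420 and 1850 CPM in n.t. cells and at 775.0, 1287 and 1322 CPM after maltonis. The groups overlapped, and replicate 1, of name code A, was the lowest of its group in both. The difference did not pass the test, with a log2 fold change of -0.18 (SE 0.376, 95% interval -1.04 to 0.68, FDR 0.674). It was 0.44 within code A (1 library against 1) and -0.31 within code B (2 against 2). The test of that difference in effect gave -0.77 (SE 0.178) with an adjusted p of 0.107 by edgeR over all genes, so it did not pass, and it rests on 1 library per group in code A. Without n.t. replicate 3 the log2 fold change was 0.17, and without n.t. replicate 1 it was -0.55.

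HSPB1 encodes HSP27, a small heat shock protein that holds unfolded clients without using ATP. It was measured at 95.02, 106.6 and 88.2 CPM in n.t. cells and at 89.8, 62.7 and 62.0 CPM after maltonis. The treated replicate 1 lay within the range of the n.t. libraries, while the other treated libraries lay below it. HSPB1 was not called, with a log2 fold change of -0.44 (SE 0.144, FDR 0.0221). With the replicate number as a block it passed, at -0.46 (FDR 0.00254), and 4 members were then lower. It also passed without maltonis replicate 1, at -0.65 (FDR 0.000595). The difference was -0.082 within code A and -0.64 within code B.

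HSPD1 and HSPE1 encode HSP60 and HSP10, the mitochondrial chaperonin and its lid, and their RefSeq starts lie 104 bases apart on chromosome 2 in opposite directions. HSPD1 was measured at 1137, 1324 and 1295 CPM in n.t. cells and at 562.4, 630.7 and 630.7 CPM after maltonis. All treated libraries were far below all n.t. libraries, with a log2 fold change of -1.04 (SE 0.0791, FDR 4.37e-06). HSPE1 was measured at 105.4, 116.0 and 101.5 CPM in n.t. cells and at 73.5, 82.3 and 86.5 CPM after maltonis. Its groups did not overlap either, and its log2 fold change was -0.41 (SE 0.0807, FDR 0.00147). The read-through gene HSPE1-MOB4, which shares exons with HSPE1, held 0, 7 and 1 counts in n.t. libraries and 16, 22 and 17 after maltonis. Reads over the shared exons could have been dropped in counting, so the level of HSPE1 is uncertain.

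**Figure D2:**
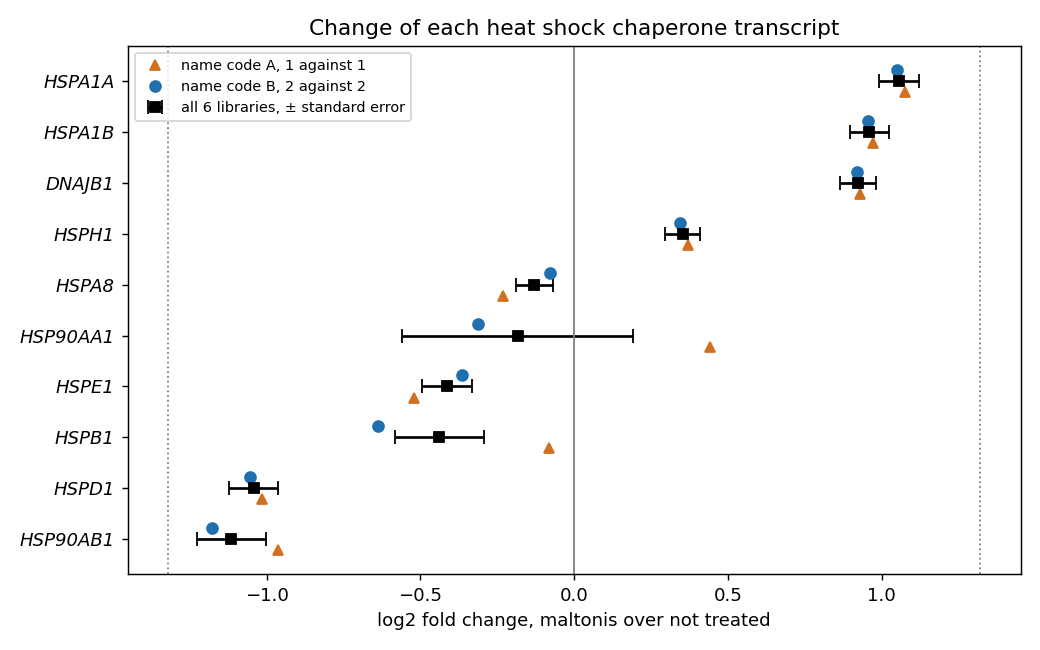
Log2 fold change of maltonis over n.t. for each member, with black squares and standard errors for all 6 libraries, orange triangles for the code A pair and blue circles for the code B libraries; dotted lines mark the 2.5-fold change that the study asked for in either direction. No member passes a dotted line, and the codes lie on opposite sides of 0 only for HSP90AA1, at 0.44 and -0.31.

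For the 10 single values, the exact two-sided permutation test over libraries gave p = 0.1 for 8 members, 0.2 for HSPB1 and 0.8 for HSP90AA1. With 3 libraries against 3, 0.1 is the smallest p that this test can give, so it cannot reach 0.05.

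The order of the members by level was read per length, in RPKM over all exons of GENCODE version 29. In n.t. cells it ran from HSPA8 (619 RPKM) and HSP90AB1 (598) over HSPD1 (295), HSP90AA1 (244), HSPH1 (69.9), HSPB1 (59.1), HSPE1 (54.4) and DNAJB1 (28.5) to HSPA1A (19.7) and HSPA1B (19.3). The libraries of HSPA8 and HSP90AB1 overlapped, as did those of HSPD1 and HSP90AA1, those of HSPB1 and HSPE1, and those of HSPA1A and HSPA1B. After maltonis HSPA8 stayed first at 565 RPKM, DNAJB1 stood sixth at 54.1 and HSPE1 ninth at 40.8. The libraries of DNAJB1 then overlapped those of HSPB1, and those of HSPE1 overlapped those of HSPA1A, HSPA1B and HSPB1. Reads shared by HSPA1A and HSPA1B, by HSP90AB1 and HSP90AB3P or by HSPE1 and HSPE1-MOB4 could have been dropped in counting. The ranks of these members are uncertain for that reason. The order also rests in part on the length used. With exons of RefSeq-linked transcripts, HSPA8 stood at 1218 and HSP90AB1 at 644 RPKM in n.t. cells without overlap. The means of HSPB1 (106) and HSPE1 (113) then stood above that of HSPH1 (103), with overlapping libraries. After maltonis the mean of HSPE1 was then sixth at 85.0 RPKM and above DNAJB1 at 81.1, the reverse of their order with all exons. The libraries of HSPE1 and DNAJB1 overlapped with these lengths.

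Ratios between members were taken within each library, where library size and scaling cancel. They use the reads that were counted. Reads shared by HSPA1A and HSPA1B, by HSP90AB1 and HSP90AB3P or by HSPE1 and HSPE1-MOB4 could have been dropped. The size of each ratio is uncertain for that reason. The reads of HSPA8 were 33.0, 28.96 and 30.4 times those of HSPA1A and HSPA1B together in n.t. cells, and 13.8, 14.3 and 13.7 times after maltonis. The treated ratios were lower in every library, by 1.14 on the log2 scale, so the inducible share of the cytosolic HSP70 reads was larger. The ratio of HSP90AA1 to HSP90AB1 was 0.386, 0.729 and 0.962 in n.t. cells and 1.02, 1.55 and 1.50 after maltonis. It was higher in every treated library, although HSP90AA1 itself was not called, with a log2 difference of 1.41 within code A and 0.86 within code B. Leaving out a single library moved this difference between 0.67 and 1.33. The ratio of HSPD1 to HSPE1 was 10.8, 11.4 and 12.8 in n.t. cells and 7.65, 7.66 and 7.29 after maltonis. HSPD1 thus fell relative to HSPE1 in every treated library, by 0.63 on the log2 scale. Each of these ratios gave an exact permutation p of 0.1, the smallest possible.

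**Figure D3:**
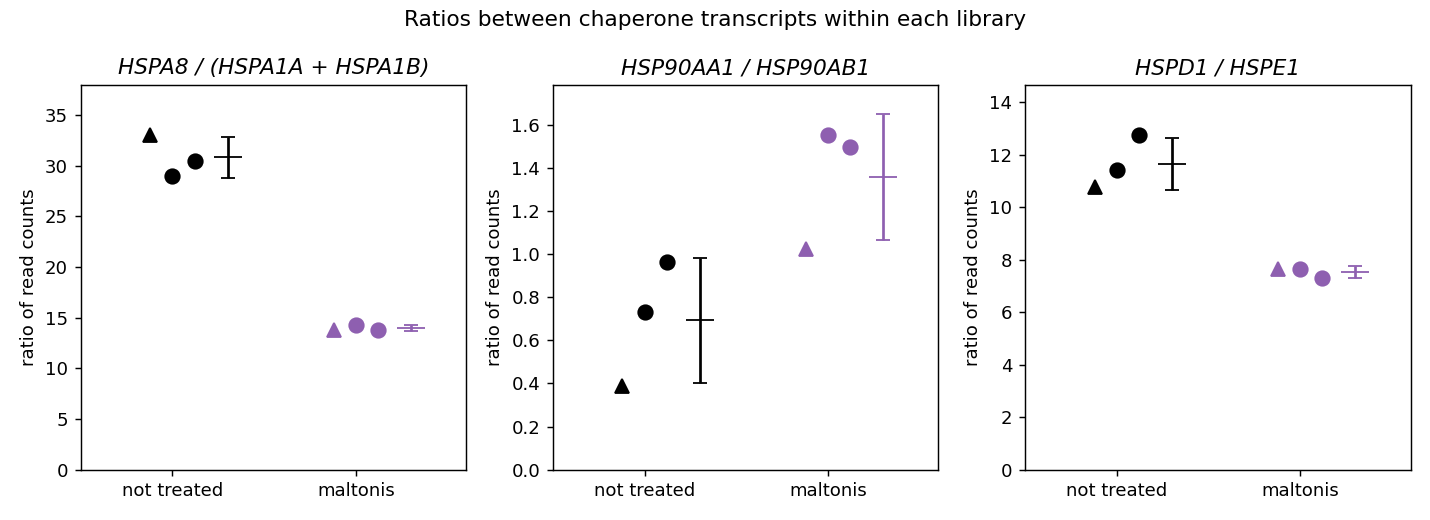
Ratio of read counts between members within each library, n.t. in black and maltonis in purple, triangles for code A and circles for code B, with the mean ± SD of 3 libraries beside the points. HSPA8 over inducible HSP70 goes from 28.96 to 33.0 down to 13.7 to 14.3, HSP90AA1 over HSP90AB1 rises, and HSPD1 over HSPE1 falls, without overlap in any of the 3 panels.

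The 10 members together held 0.707, 0.823 and 0.860% of all counts in n.t. libraries and 0.636, 0.702 and 0.723% after maltonis. These ranges overlapped, and in both groups replicate 1 had the lowest share, but the share was lower after maltonis within each of the 3 same-numbered pairs. On the TMM scale the members summed to 7301, 8679 and 8940 CPM in n.t. cells and to 6069, 6750 and 6971 CPM after maltonis, without overlap. In bulk RNA, fewer cells with a transcript and less transcript per cell cannot be told apart. All 10 promyelocytic and myeloid markers were detected in every library, and their levels moved with treatment in both directions. MPO was at 12892 to 15528 CPM in n.t. cells and 7298 to 7553 after maltonis. CEBPE (106 to 138 CPM in n.t. cells, 59.0 to 67.5 after maltonis), SPI1 (71.7 to 82.6, 40.8 to 64.4) and CD33 (43.1 to 49.7, 29.7 to 35.2) were also lower without overlap. CTSG was at 103 to 113 CPM in n.t. cells and 539 to 576 after maltonis, and PRTN3 at 449 to 584 and 595 to 896 CPM. AZU1 and PML were also higher without overlap, and RARA overlapped between groups. KIT was low, at 0.386 to 0.633 CPM in n.t. cells and 2.95 to 3.67 after maltonis. HBB and HBA1 had no counts. Among 11 markers of other cell types, CD3E and COL1A1 were near 0, and CD3D was at 42.9 to 44.8 CPM in n.t. cells and 14.9 to 15.8 after maltonis. The 11 summed to 94.9 to 98.1 CPM in n.t. cells and 57.0 to 64.8 CPM after maltonis, with EPCAM, KRT18 and PECAM1 as most of the rest. EPCAM and KRT18 were lower after maltonis, but PECAM1 was higher, at 7.51 to 13.4 CPM in n.t. cells and 15.8 to 20.3 after maltonis. The part of these markers in the results was not tested.

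Of 133 other genes of the chaperone network, 122 were tested, of which 35 rose, 51 fell and 36 were not called, with a median log2 fold change of -0.20. The counts moved with the scaling. In the network 38 rose and 39 fell with total counts, and 37 and 42 with upper quartile scaling. Of all genes, 4902 and 4722 then rose and 3652 and 3820 fell. The network median stayed below that of all genes, at -0.20 against 0.01 with TMM. It was -0.11 against 0.10 with upper quartile and -0.083 against 0.13 with total counts. With TMM the shares among all genes were 31.9% and 32.1%, against 28.7% and 41.8% in the network. Of the regulators, the mRNA of HSF1, at a log2 fold change of 0.10 (FDR 0.247), HSF2, at 0.13 (FDR 0.0865), and their inhibitor HSBP1, at 0.02 (FDR 0.778), did not pass the test. HSF4, a factor best known from the lens, rose from 1.65, 1.05 and 0.905 CPM to 9.45, 7.96 and 6.92 CPM, a log2 fold change of 2.82 from a low level.

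The lists that follow share some genes, so a gene can be counted in several of them. Beside each list stand the shares over all genes, 31.9% higher and 32.1% lower. In the rest of the HSP70 family, 4 of 11 tested genes rose and 5 fell. The largest rises, from low levels, were those of HSPA2 (log2 fold change 3.16), HSPA1L (1.99) and HSPA6 (1.92). HSPA1L starts 259 bases from HSPA1A, and HSPA6 is a strictly stress-inducible HSP70. The largest falls were in abundant genes of other compartments, namely HSPA9, the mitochondrial HSP70, at -1.17, HSPA5, the HSP70 of the endoplasmic reticulum, at -1.16, and HYOU1 at -0.51. HSPA5 was variable, at 226.5, 446.8 and 596.7 CPM in n.t. cells and 141.6, 213.6 and 213.1 CPM after maltonis, and its call was lost without any 1 library except n.t. replicate 1, at log2 fold changes of -1.28 to -0.84. Both other HSP90 genes fell, HSP90B1 of the endoplasmic reticulum by 1.27 and TRAP1 of mitochondria by 2.01 on the log2 scale. Of 8 other small heat shock proteins, HSPB9 alone was tested, on 2 to 14 counts per library.

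Among 36 J-domain proteins tested, 13 rose and 14 fell, from DNAJC28 (3.05), HSCB (1.6) and DNAJB5 (1.46) to DNAJC10 (-2.13), DNAJC18 (-2.49) and DNAJC15 (-3.82). DNAJC28 rose from a low level, with means of 0.53 CPM in n.t. cells and 4.58 after maltonis. DNAJC18 was also low, at means of 6.28 and 1.11 CPM. Of 9 HSP70 co-chaperones, 4 rose and 3 fell, but 1 rose without maltonis replicate 2 or 3 and 2 rose without n.t. replicate 2 or 3. BAG3, which links HSP70 to autophagy, rose by 0.82 (SE 0.148), BAG2 by 0.30 and ST13 by 0.26, while HSPBP1 was at -0.50, STUB1, the ubiquitin ligase CHIP, at -0.60 and BAG5 at -1.09. Of 19 HSP90 co-chaperones, 3 rose and 9 fell. Only 1 rose without replicate 2 of either group, between 6 and 13 fell on leaving out 1 library, and 14 fell in the code B libraries alone. FKBP4, an immunophilin of steroid receptor complexes, fell from 333.8, 349.6 and 322.3 CPM to 68.1, 68.5 and 61.7 CPM, a log2 fold change of -2.34. TTC4 was at -1.90 and RPAP3 at -1.24, while PPID (0.51) and CDC37L1 (0.31) were among those that rose.

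Of 14 genes of the cytosolic chaperonin and prefoldin, 9 fell (64.3%, against 32.1% of all genes) and only TCP1 rose (0.55). CCT7 (-1.11), CCT8 (-0.90) and CCT2 (-0.63), which are subunits of the same ring as TCP1, fell most. Of 14 genes of mitochondrial protein quality control, 3 rose and 5 fell. The protease HTRA2 was at 1.75, SPG7 at 0.42 and CLPB at 0.34. TRAP1 (-2.01) and HSPA9 (-1.17), given above, fell most, followed by DNAJA3 at -0.44. Of 15 endoplasmic reticulum chaperones, 10 fell (66.7%), among them CALR (-1.003), and DNAJB9 (0.64), DNAJC3 (0.39) and CRELD2 (0.36) rose. Of 19 known HSF1 targets outside the 10 members, 8 rose (42.1%) and 6 fell (31.6%), with a median of 0.21. Among all genes 31.9% rose and 32.1% fell. On leaving out 1 library, between 7 and 9 of these targets rose and between 4 and 7 fell. Whether either share differs from that of all genes was not tested. DNAJB4 rose by 0.93 besides HSPA6 and BAG3, while AHSA1 (-0.93) and CHORDC1 (-0.65), both partners of HSP90, fell with FKBP4.

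**Figure D4:**
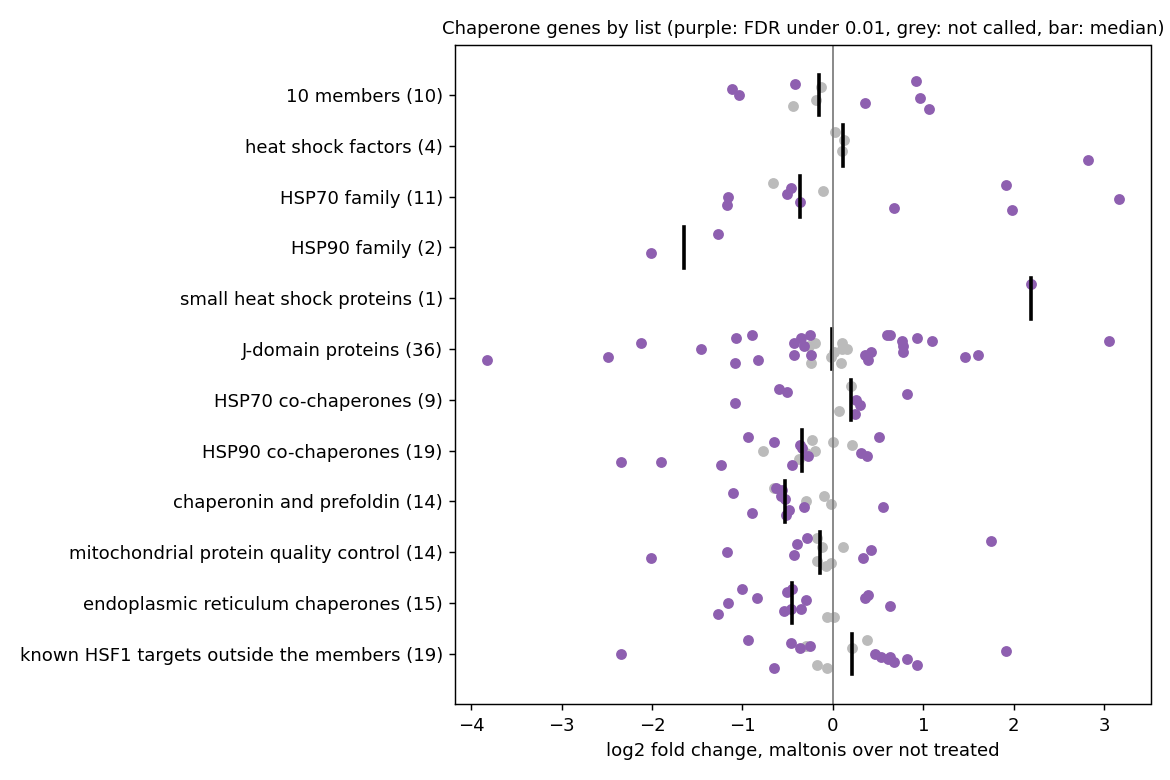
Log2 fold change of every tested gene in each chaperone list, with the number of genes in parentheses, purple for an FDR under 0.01, grey for genes not called and a bar for the median; vertical offsets only separate the points. Each list holds genes on both sides of 0 except the heat shock factors, the HSP90 family and the single small heat shock protein, and the medians run from -1.64 for the HSP90 family to 2.19 for the small heat shock protein.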

How the data were processed

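RNA was sequenced from 3 not treated and 3 maltonis-treated NB4 libraries, prepared with a stranded total RNA kit. The authors deposited HTSeq counts, which are whole-number read counts per gene symbol without normalization. The submitters' processing notes name TopHat, Bowtie2 and hg19. Tool versions, the annotation and the strand setting of the counting are not given in the sources used here, so copies and overlapping genes are uncertain. Depth was 18492154 to 38205483 counts, at which 3 counts equal 0.162 to 0.0785 CPM. No replicate pair agreed within sampling noise (chi-square per degree of freedom 4.15 to 33.1), so each library was counted once.

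Counts were tested in R 4.3.3 with edgeR 4.0.16 (TMM scaling, filterByExpr, quasi-likelihood test, no covariates) over 13209 genes with Benjamini-Hochberg adjustment. All FDR values and adjusted p-values come from this test unless another is named. Calls required an FDR under 0.01. The 95% intervals use the t quantile at the degrees of freedom of this test (8.40). The RPKM criterion of 10 used by the study was not applied to these calls. CPM are TMM-scaled, and RPKM used lengths from GENCODE version 29, found for 10 of 10 members. On simulated counts for the same design, 81 of 99 genes changed by 1 on the log2 scale and 96 of 97 changed by 2 were recovered among 13078 genes, with 0 false calls. The simulation gave every gene the same relative spread and no replicate or name code effect. It therefore does not show how the test behaves with the library differences of these data.

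Same-numbered libraries were checked for pairing, with numbers from the labels. Their deviations from the group means of log2(CPM + 0.5) correlated across 11921 genes at 0.468, 0.170 and 0.257 for replicates 1, 2 and 3, and every pair stayed above 0.1 under 3 pseudocounts and 3 expression minimums. Not treated replicates 2 and 3 correlated more with the treated library of the other number (0.260 and 0.298) than with their own. Whether libraries of 1 number shared a culture is not stated in the labels. Alternatives were DESeq2 1.42.0 and the likelihood ratio test, other scalings, filters and thresholds, the replicate block, the name code and leaving out each library.

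The members and gene lists were chosen with earlier results of these data known. Within each list, the text names up to 3 called genes with the largest rise and 3 with the largest fall, of at least 1 CPM on average, plus HSF1, HSF2 and HSBP1 and copies or neighbours of members. A gene that this rule names is not reported here. HSPB9 was named after its values were seen. Promoter sequences are from RefSeq (GRCh38.p14), with all 10 members matched. As hg19 was not used here, no coordinates of the counted features are given.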

Additional observations from a re-analysis of the deposited data

Results flagged for a closer look

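HSP90AA1 was the member whose difference pointed in opposite directions in the libraries of the 2 name codes. It was 0.44 on the log2 scale in code A, with 1 library in each group, and -0.31 in code B, with 2 in each group. The treatment-by-code term was -0.77 (SE 0.178) and did not pass edgeR's quasi-likelihood test, with an unadjusted p of 0.00188 and an adjusted p of 0.107 over all genes tested. HSPB1 had a term of -0.56 (SE 0.146), with an unadjusted p of 0.00382 and an adjusted p of 0.156. With 1 library per group in code A, the spread in this fit comes from code B alone, and HSP90AA1 was singled out for its opposite signs. Across all genes, 26 of 13209 (0.197%) passed an FDR under 0.01 for this term, 11.4% had an unadjusted p under 0.05, and 9.7% had differences of opposite sign in the codes. The code is the same as the replicate number 1 against 2 and 3, and its meaning is not stated. No test for a library far from the others was made, since groups held 3 libraries.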

How the results depend on the processing

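Under the study's added criterion of about 2.5-fold, the 7 calls of members were lost at log2 fold changes of 1.06 for HSPA1A, 0.96 for HSPA1B, 0.92 for DNAJB1, 0.35 for HSPH1, -0.41 for HSPE1, -1.04 for HSPD1 and -1.11 for HSP90AB1. Then 0 members rose and 0 fell, against 9 and 7 genes of the network and 1316 and 1369 of all genes. HSPB1 became a call at -0.44 with DESeq2 (adjusted p 0.00846) and with the likelihood ratio test (0.00787), at -0.45 with no low-count filter (0.00972), at -0.46 with the name code as covariate (0.00218), at -0.65 in the code B libraries alone (5.96e-05), and at -0.44 with an FDR under 0.05. Leaving out 1 library moved it between -0.65 and -0.37. The replicate block gave -0.46 (adjusted p 0.00254) for HSPB1 and changed no other call of a member, with 37 network genes higher and 56 lower. In the code A pair, HSPA8 was at -0.23 and HSPB1 at -0.082. Leaving out 1 library moved HSP90AA1 between -0.55 and 0.17, the network median between -0.22 and -0.17, the median of all genes between -0.011 and 0.025 and HSBP1 between -0.046 and 0.041. The network median was -0.11 with upper quartile and -0.083 with total counts scaling, which moved the median of all genes to 0.10 and 0.13. Some calls in the network were lost on leaving out 1 library: HSPA5 (-1.28 to -0.84) without any but n.t. replicate 1, ST13 (0.17 to 0.28) without any but maltonis replicate 1, STUB1 (-0.63 to -0.55) and CDC37L1 (0.28 to 0.30) without n.t. replicate 2 or maltonis replicates 2 or 3, BAG2 (0.26 and 0.27) without maltonis replicates 2 or 3, and CHORDC1 without n.t. replicate 2 (-0.59) or maltonis replicate 1 (-0.55). HSPA5 also lost its call with upper quartile (-1.07) and total counts scaling (-1.04) and with the filter of 1 CPM (-1.14), and STUB1 with total counts scaling (-0.48). HSF2 passed with total counts scaling, at 0.25. The cause of these changes was not tested. All 7 called members kept direction and call in every fit at an FDR under 0.01. The depth left HSPB9 and HSPE1-MOB4 on few counts, and 3 libraries per group limit every p-value.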
